A study of Mus musculus with 12 samples.

Results

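The genes described here are 34 that mark macrophages and other myeloid cells in pancreatic islets, which are groups of endocrine cells scattered through the pancreas. They were listed by name, with earlier results of these data known. Each was read from the probe set that carried its symbol alone and had the highest mean over the arrays. Of the 34 genes, 33 had such a probe set (Ncf1 had none) and 30 had a mean at or above a log2 level of 3.43, the 25th percentile of all 17097 genes measured. The 30 were tested among 12825 genes, while Itgam, Mrc1 and Cd163 lay under that level and are given as levels only.

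Islet RNA was hybridised to Affymetrix mouse arrays, 1 sample to an array, with 3 arrays for each of 4 genotypes. WT mice were wild type, hIAPP-Tg mice expressed human islet amyloid polypeptide, the main peptide of islet amyloid, from a transgene, BACE2-KO mice lacked the aspartyl protease BACE2, and hIAPP-TgxBACE2-KO mice carried the transgene and lacked BACE2. All groups shared the strain name B6;129P2-Bace2tm1Bdes/J, an age of 12 weeks and a standard chow diet. The sources used here do not give the promoter of the transgene or whether islets of several mice were pooled, and the Bace2 transcript does not check the genotype because its probes are not known to lie in the deleted part.

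Islets hold a small resident population of macrophages, which lie close to beta cells and capillaries. These cells depend on the growth factor receptor CSF1R and on the transcription factor PU.1, the product of Spi1, and they take up material from beta cells and digest it in lysosomes. Fc receptors and receptors such as TREM2 signal in them through small adaptors that carry an ITAM motif, and the C1q chains they secrete form the recognition unit of the classical complement pathway. Aggregates of islet amyloid polypeptide are a known stimulus of macrophages in cell culture. The islets were bulk samples, in which fewer cells of a type and less RNA per cell cannot be told apart.

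The arrays held clear signal for some of the macrophage genes but not for every marker of the lineage. Of the 30 tested, 6 had a mean log2 level of 7 or more, 14 had one from 5 to 7 and 10 had one under 5. C1qa ranged from 8.11 to 8.99 over the 12 arrays, Ctss from 7.88 to 9.59, and Cd68, a lysosomal membrane glycoprotein of macrophages, from 6.53 to 7.88. Spi1 ranged from 3.30 to 3.83, close to the 25th percentile of all genes. Itgam, the alpha chain of complement receptor 3, had levels of 3.05 to 3.66. The mannose receptor gene Mrc1 had 2.84 to 3.69 and the haemoglobin scavenger receptor gene Cd163 had 2.76 to 3.12. Levels on arrays are log2 values that depend on each probe set, so they were compared between arrays and not between genes.

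Promoter sequence was available for 27 of the 34 genes, in RefSeq windows from 250 bases before to 50 bases after the annotated start (assembly GRCm38.p6). There was no entry for Spi1, Csf1r, Adgre1, Cd14, C1qa, Tyrobp and Ms4a6d. PU.1 binds purine-rich DNA, and windows were searched on both strands for AGGAAGT and for the shorter GAGGAA, which can overlap. AGGAAGT was in the windows of 8 of the 27 genes (29.6%) and of 10.7% of the 27025 genes in the table, and GAGGAA in 16 of 27 (59.3%) and 31.3%. These are matches of letters and not measured binding sites. The 120 bases before the start are printed for 4 genes that hold AGGAAGT there: the lysozyme gene Lyz2, which differed most between genotypes, the complement gene C1qb, the Fc receptor gene Fcgr1 and the leukocyte gene Ptprc. Each is on the minus strand and is written in the direction of transcription, with capitals marking either motif on either strand. The coordinates are chr10:117282273-117282392 for Lyz2, chr4:136886201-136886320 for C1qb, chr3:96293970-96294089 for Fcgr1 and chr1:138175306-138175425 for the more upstream of the Ptprc starts.
Lyz2: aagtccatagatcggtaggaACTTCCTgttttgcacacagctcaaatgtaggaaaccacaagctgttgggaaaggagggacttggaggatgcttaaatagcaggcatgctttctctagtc
C1qb: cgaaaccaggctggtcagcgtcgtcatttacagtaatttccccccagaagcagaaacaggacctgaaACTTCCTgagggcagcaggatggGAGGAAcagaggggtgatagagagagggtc
Fcgr1: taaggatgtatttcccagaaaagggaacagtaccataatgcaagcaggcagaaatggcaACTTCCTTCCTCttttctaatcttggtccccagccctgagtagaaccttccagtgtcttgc
Ptprc: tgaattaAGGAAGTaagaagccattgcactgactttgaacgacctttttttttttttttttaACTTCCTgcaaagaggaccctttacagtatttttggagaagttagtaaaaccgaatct
AGGAAGT appears on the opposite strand, as ACTTCCT, in Lyz2, C1qb and Fcgr1, and on both strands in Ptprc.

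Macrophage transcripts were higher in hIAPP-Tg than in WT islets for most of the genes tested, and Lyz2 by the most. The fitted difference was above 0 for 29 of the 30, compared with 41.6% of all genes tested, and the exception was Csf1r (-0.26, SE 0.17). The median difference over the 30 was 0.60 log2 units, against -0.03 over all 12825 genes. All 3 hIAPP-Tg arrays lay above all 3 WT arrays for 14 of the 30 genes, where 3.39% of all genes did so, and for none of the 30 below (5.77% of all genes). With Benjamini-Hochberg adjustment of limma's p over all genes, 0 of the 30 passed 0.05, as did 2 of all genes (0.0156%). At an unadjusted p under 0.05 there were 11 of the 30, all higher in hIAPP-Tg, where 1.43% of all genes were higher at that threshold. The 30 were listed with earlier results of these data known, share arrays and cells, and passed a filter on level. These counts therefore describe them and are not a test. Without the filter, 31 of 33 were higher and the median was 0.53. Leaving out any one array gave 27 to 29 of 30 higher, with medians of 0.50 to 0.75. The difference of a single gene was less steady, and for 18 of the 30 it moved by over 1.5 times when some array was left out.

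**Figure D1:**
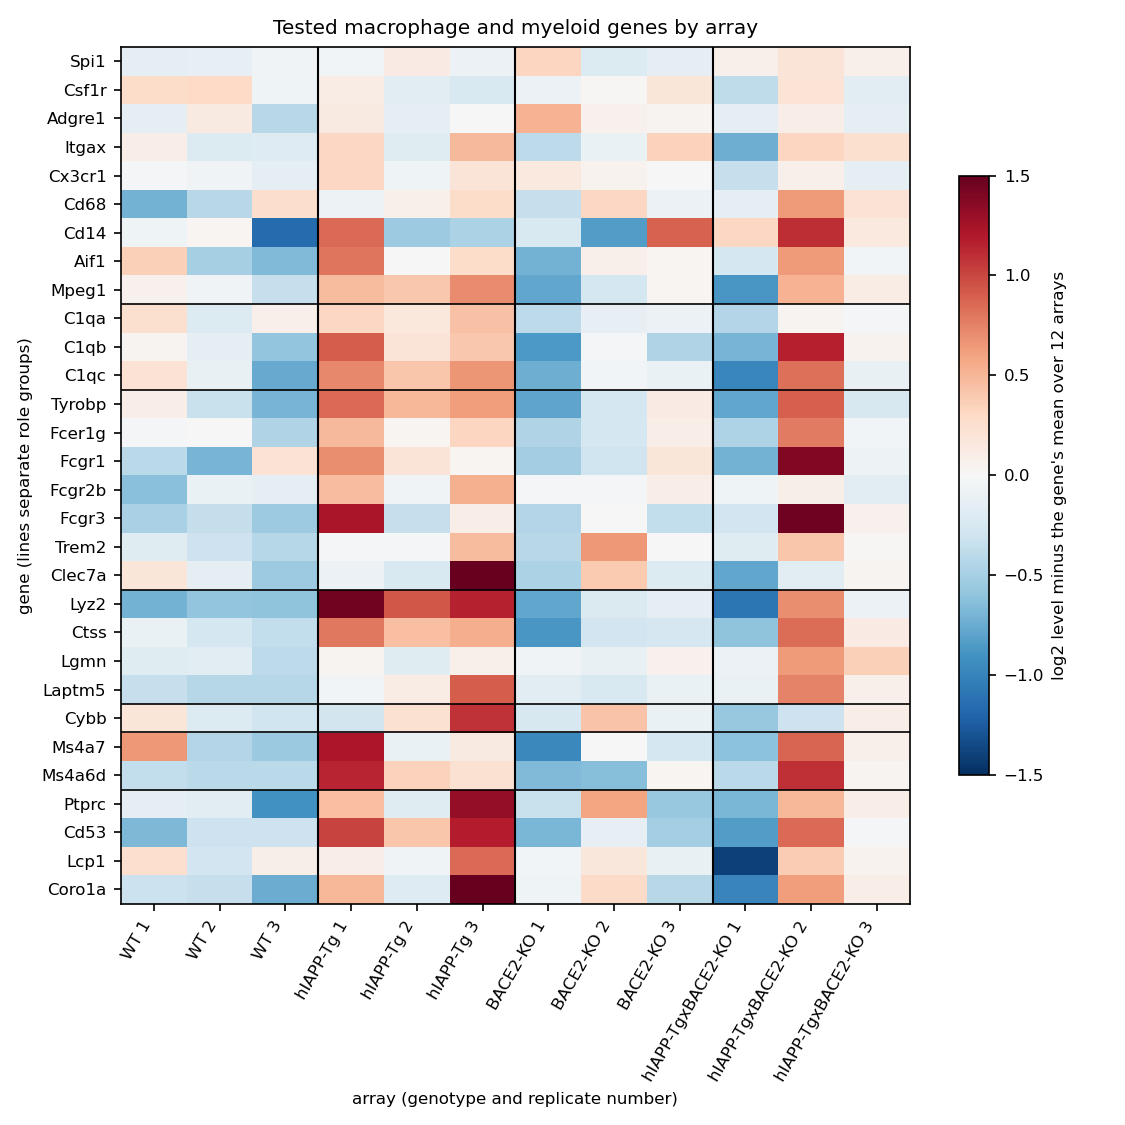
Log2 level of each macrophage and myeloid gene on each of the 12 arrays, as the difference from that gene's mean over the arrays, with genes ordered by role and arrays by genotype. The hIAPP-Tg arrays and array 2 of hIAPP-TgxBACE2-KO hold most of the high values, and array 1 of hIAPP-TgxBACE2-KO was the lowest for 14 genes.

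Of the lysosomal genes, Lyz2 encodes lysozyme, a bacteriolytic enzyme of macrophages and granulocytes. Its log2 level was 6.61, 6.73 and 6.71 on the WT arrays and 8.76, 8.25 and 8.47 on the hIAPP-Tg arrays. It was 6.54, 7.10 and 7.18 in BACE2-KO and 6.23, 8.01 and 7.23 in hIAPP-TgxBACE2-KO. The hIAPP-Tg arrays lay above the other 9, and the hIAPP-TgxBACE2-KO arrays spread over both sides of WT. The means were 6.68 ± 0.06 (SD, n = 3) in WT and 8.49 ± 0.26 in hIAPP-Tg, a difference of 1.81 (SE 0.33) or 3.51-fold, with an adjusted p of 0.568 in limma's fit of all 12 arrays. When limma was fitted to the 6 arrays of these groups alone, the difference had an SE of 0.14 and an adjusted p of 0.00319, and Lyz2 passed along with 2 other genes (0.0234% of those tested were called). Its call in the fit of all arrays also depended on the spread in hIAPP-TgxBACE2-KO: the adjusted p was 0.0128 without array 1 of that group and 0.033 without array 2. The probe set of Lyz2 carries a suffix that marks probes shared with other transcripts. Lyz1, its close paralogue, had a probe set of its own with levels of 2.66 to 3.52. Levels of different probe sets are not comparable, so whether the Lyz2 probe set also reads Lyz1 was not tested. No other probe set carried the symbol Lyz2 alone.

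Ctss encodes cathepsin S, a lysosomal protease that trims the invariant chain of MHC class II. Its levels were 8.65, 8.49 and 8.38 in WT, 9.54, 9.20 and 9.30 in hIAPP-Tg, 7.88, 8.46 and 8.5 in BACE2-KO and 8.15, 9.59 and 8.87 in hIAPP-TgxBACE2-KO. The hIAPP-Tg arrays did not overlap those of WT, and the difference was 0.84 (SE 0.28, adjusted p = 0.95). Laptm5, a lysosomal membrane protein of blood cells, had 4.48, 4.40 and 4.39 in WT and 4.78, 4.94 and 5.73 in hIAPP-Tg. The groups did not overlap, but the difference of 0.73 (SE 0.25) came to 0.44 without array 3 of hIAPP-Tg. Its other probe set gave 0.69. Lgmn encodes legumain, an asparaginyl endopeptidase of lysosomes, and had 8.23, 8.24 and 8.02 in WT, 8.45, 8.23 and 8.48 in hIAPP-Tg, 8.35, 8.30 and 8.47 in BACE2-KO and 8.32, 9.05 and 8.76 in hIAPP-TgxBACE2-KO. Unlike Lyz2, it had its highest group mean in hIAPP-TgxBACE2-KO (8.71 ± 0.37), and all arrays of that group and of BACE2-KO lay above WT.

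The C1q chains are encoded by 3 neighbouring genes on chromosome 4, with no other protein-coding gene between them. C1qb had levels of 6.64, 6.46 and 6.01 in WT and 7.5, 6.79 and 7.0 in hIAPP-Tg. C1qc had 6.46, 6.13 and 5.49 in WT and 6.96, 6.66 and 6.90 in hIAPP-Tg. For both genes the groups did not overlap, with differences of 0.73 (SE 0.38) for C1qb and 0.81 (SE 0.37) for C1qc. C1qa had 8.79, 8.34 and 8.63 in WT and 8.86, 8.71 and 8.99 in hIAPP-Tg, and its groups overlapped with a difference of 0.27 (SE 0.15), or 0.14 without array 2 of WT. None of the 3 passed the test, each with an adjusted p of 0.95. In hIAPP-TgxBACE2-KO the chains spread widely between arrays: C1qb was 5.90, 7.76 and 6.65, C1qc 5.27, 7.07 and 6.13, and C1qa 8.11, 8.59 and 8.52. Array 1 was the lowest of that group for all 3 chains and array 2 the highest.

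**Figure D2:**
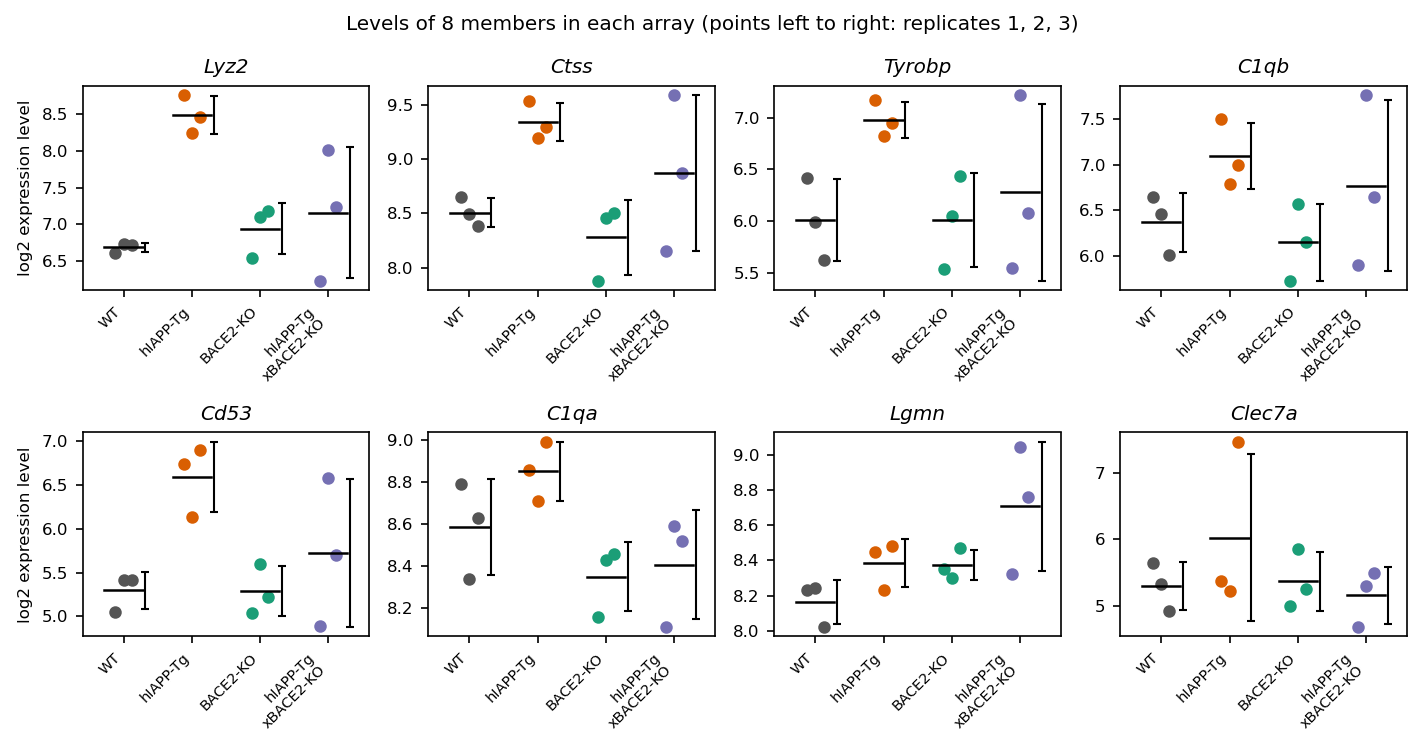
Log2 level of 8 genes on each array, grouped by genotype, where points are arrays, lines are group means and bars are the SD over 3 arrays. For Lyz2 and Cd53 the 3 hIAPP-Tg arrays lie above all 3 WT and all 3 BACE2-KO arrays, while the hIAPP-TgxBACE2-KO arrays spread over most of that range.

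Among the Fc receptors and ITAM adaptors, all 7 genes had higher fitted levels in hIAPP-Tg than in WT (median difference 0.60) and 5 did so without overlap (3.39% of all genes). For Fcgr2b, Fcgr3 and Fcer1g that separation was narrow. Tyrobp encodes DAP12, the ITAM adaptor of TREM2, and had levels of 6.42, 5.99 and 5.62 in WT, 7.17, 6.82 and 6.95 in hIAPP-Tg, 5.53, 6.05 and 6.44 in BACE2-KO and 5.54, 7.22 and 6.08 in hIAPP-TgxBACE2-KO. The hIAPP-Tg arrays lay above WT by 0.97 (SE 0.36), and array 2 of hIAPP-TgxBACE2-KO lay higher still. Fcgr2b, the inhibitory IgG receptor, had 5.28, 5.81 and 5.76 in WT and 6.37, 5.85 and 6.44 in hIAPP-Tg. The lowest hIAPP-Tg array exceeded the highest WT array by a narrow margin, and the difference was 0.60 (SE 0.18). The other probe sets of Fcgr2b gave 0.82, 1.55 and 1.03. Fcgr3, an activating IgG receptor, had 3.69, 3.82 and 3.63 in WT and 5.40, 3.83 and 4.28 in hIAPP-Tg, a difference of 0.79 (SE 0.42) that came to 0.34 without array 1 of hIAPP-Tg. The genes of these 2 receptors lie on chromosome 1 with 1 protein-coding gene between them.

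Trem2, a lipid-sensing receptor, had levels of 4.57, 4.44 and 4.32 in WT and 4.72, 4.73 and 5.22 in hIAPP-Tg, and the groups did not overlap (0.45, SE 0.25, and 0.28 without array 3 of hIAPP-Tg). Its other probe set, under the filter level, gave 0.12. Fcer1g, the gamma chain shared by Fc receptors, differed by 0.44 (SE 0.27), or 0.29 without array 3 of WT, and its groups did not overlap. The high-affinity IgG receptor gene Fcgr1 differed by 0.60 (SE 0.43), with overlapping groups, and its other probe set gave -0.18. Clec7a encodes dectin-1, a receptor for fungal glucans, and had 5.65, 5.33 and 4.92 in WT and 5.38, 5.23 and 7.47 in hIAPP-Tg. Its difference of 0.73 (SE 0.48) rested on array 3 of hIAPP-Tg and was 0.005 without that array.

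The lineage and surface markers differed, with a median of 0.30 over the 9 tested, or 0.14 without array 1 of hIAPP-Tg. Mpeg1, which encodes the pore-forming protein perforin-2, was the only one of them whose hIAPP-Tg arrays (7.76, 7.69 and 8.0) all lay above WT (7.35, 7.23 and 6.94). Its difference was 0.64 (SE 0.30). Aif1, which encodes the actin-binding protein IBA1, had 5.91, 5.05 and 4.89 in WT and 6.36, 5.56 and 5.83 in hIAPP-Tg, and the groups overlapped (0.63, SE 0.32, and 0.41 without array 1 of hIAPP-Tg). Cd68 had 6.53, 6.82 and 7.5 in WT and 7.16, 7.32 and 7.52 in hIAPP-Tg, and its difference of 0.38 (SE 0.25) was 0.17 without array 1 of WT. The fractalkine receptor gene Cx3cr1 had 3.89, 3.87 and 3.77 in WT, 4.23, 3.86 and 4.11 in hIAPP-Tg and 3.57, 4.0 and 3.78 in hIAPP-TgxBACE2-KO, and its groups overlapped. The integrin gene Itgax differed by 0.30 (SE 0.28) between hIAPP-Tg and WT, and by 0.16 without array 3 of hIAPP-Tg or 0.50 without array 2.

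For the growth factor receptor, the lineage factor and Adgre1, the hIAPP-Tg and WT arrays overlapped. Csf1r had 4.93, 4.95 and 4.59 in WT and 4.77, 4.49 and 4.43 in hIAPP-Tg, and was the only gene of the 30 with a lower mean there. Adgre1, which encodes a surface receptor used to mark mouse macrophages, had 4.09, 4.35 and 3.80 in WT and 4.36, 4.08 and 4.21 in hIAPP-Tg, and Spi1 had 3.37, 3.39 and 3.46 in WT and 3.47, 3.63 and 3.42 in hIAPP-Tg. Groups overlapped for all 3, with differences of -0.26 (SE 0.17), 0.14 (SE 0.17) and 0.10 (SE 0.13). The difference of Adgre1 was -0.0033 without array 3 of WT. The lipopolysaccharide co-receptor gene Cd14 had 6.41, 6.51 and 5.32 in WT and 7.33, 5.93 and 6.0 in hIAPP-Tg, and its difference of 0.34 (SE 0.48) turned to -0.12 without array 1 of hIAPP-Tg and to -0.04 without array 3 of WT. A p that missed the threshold does not show that these levels were alike.

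Of the MS4A genes, which encode tetraspanning membrane proteins of macrophages, Ms4a6d had 4.70, 4.66 and 4.66 in WT and 6.21, 5.42 and 5.30 in hIAPP-Tg. The groups did not overlap and the difference was 0.97 (SE 0.34), with 1.07 on its other probe set above the filter level. Ms4a7 had 6.54, 5.45 and 5.33 in WT and 7.10, 5.79 and 6.02 in hIAPP-Tg, and its difference of 0.53 (SE 0.44) was 0.13 without array 1 of hIAPP-Tg. Cybb, the catalytic subunit of the phagocyte oxidase, had 4.06, 3.68 and 3.58 in WT and 3.61, 4.11 and 4.97 in hIAPP-Tg, a difference of 0.46 (SE 0.30) that came to 0.09 without array 3 of hIAPP-Tg. Its 2 other probe sets gave -0.20 and 0.23.

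The 4 general leukocyte genes had a median difference of 1.01, which came to 0.58 without array 3 of hIAPP-Tg. Cd53, a leukocyte tetraspanin, had 5.05, 5.42 and 5.42 in WT, 6.74, 6.14 and 6.90 in hIAPP-Tg, 5.04, 5.60 and 5.22 in BACE2-KO and 4.89, 6.58 and 5.70 in hIAPP-TgxBACE2-KO. The hIAPP-Tg arrays lay above WT without overlap by 1.30 (SE 0.34, adjusted p = 0.95), and by 1.14 without array 3 of hIAPP-Tg. Its other probe set lay under the filter level, and the mean of both gave 0.68. Coro1a, an actin regulator of leukocytes, had 5.16, 5.13 and 4.73 in WT and 5.98, 5.29 and 7.04 in hIAPP-Tg. Ptprc, which encodes CD45, had 5.5, 5.48 and 4.73 in WT and 6.09, 5.45 and 6.95 in hIAPP-Tg. Both were highest on array 3 of hIAPP-Tg: their differences of 1.10 (SE 0.43) and 0.93 (SE 0.41) came to 0.63 and 0.53 without it. Lcp1, the actin bundler L-plastin, differed by 0.28 (SE 0.38) and by 0.0017 without the same array.

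That array also carried B lymphocyte transcripts. The mean level of 4 B cell genes was 6.55 on array 3 of hIAPP-Tg and 5.68 on array 2 of BACE2-KO, and 3.67 to 4.62 on the other 10. Ms4a1, which encodes CD20, was 6.73 and 4.43 on these 2 arrays and 2.64 to 3.94 on the others, and Jchain, the joining chain of plasma cells, was 8.88 and 8.95 against 2.52 to 5.55. Cd79b (5.19) and Cd22 (5.85) were highest on array 3 of hIAPP-Tg, while Cd22 was 4.86 on array 2 of BACE2-KO, within the range of the others. The other B cell genes did not single out these arrays: Cd79a was 4.75 and 4.49 there and highest on array 1 of hIAPP-Tg (4.98), Pax5 was 3.32 and 3.26 there and highest on array 2 of hIAPP-Tg (3.89), and Ighm was 2.75 to 3.27 on all arrays. B cells also express Ptprc, Cd53, Coro1a, Laptm5, Lcp1 and Fcgr2b. Without both arrays, 29 of the 30 macrophage genes were higher in hIAPP-Tg than in WT, with a median of 0.51. With the B cell mean as a covariate there were again 29, with a median of 0.54. In each of these limma fits 6 of the 30 had an unadjusted p under 0.05, against 11 with all arrays and no covariate. The shares of all genes in these fits were not counted, so the counts only describe the 30. Of 12 T and NK cell genes, 8 lay under the filter level. The 3 tested were Cd3e (4.50 to 5.11), Cd3d (3.17 to 4.02) and Cd4 (3.56 to 4.19). The dendritic cell genes measured ranged from 3.0 to 4.04. Of 12 neutrophil and mast cell genes, 7 lay under the filter level, among them S100a8, Mpo and Cpa3. The 3 tested were S100a9 (3.25 to 4.60), Csf3r (3.89 to 4.32) and Kit (5.09 to 6.52).

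**Figure D3:**
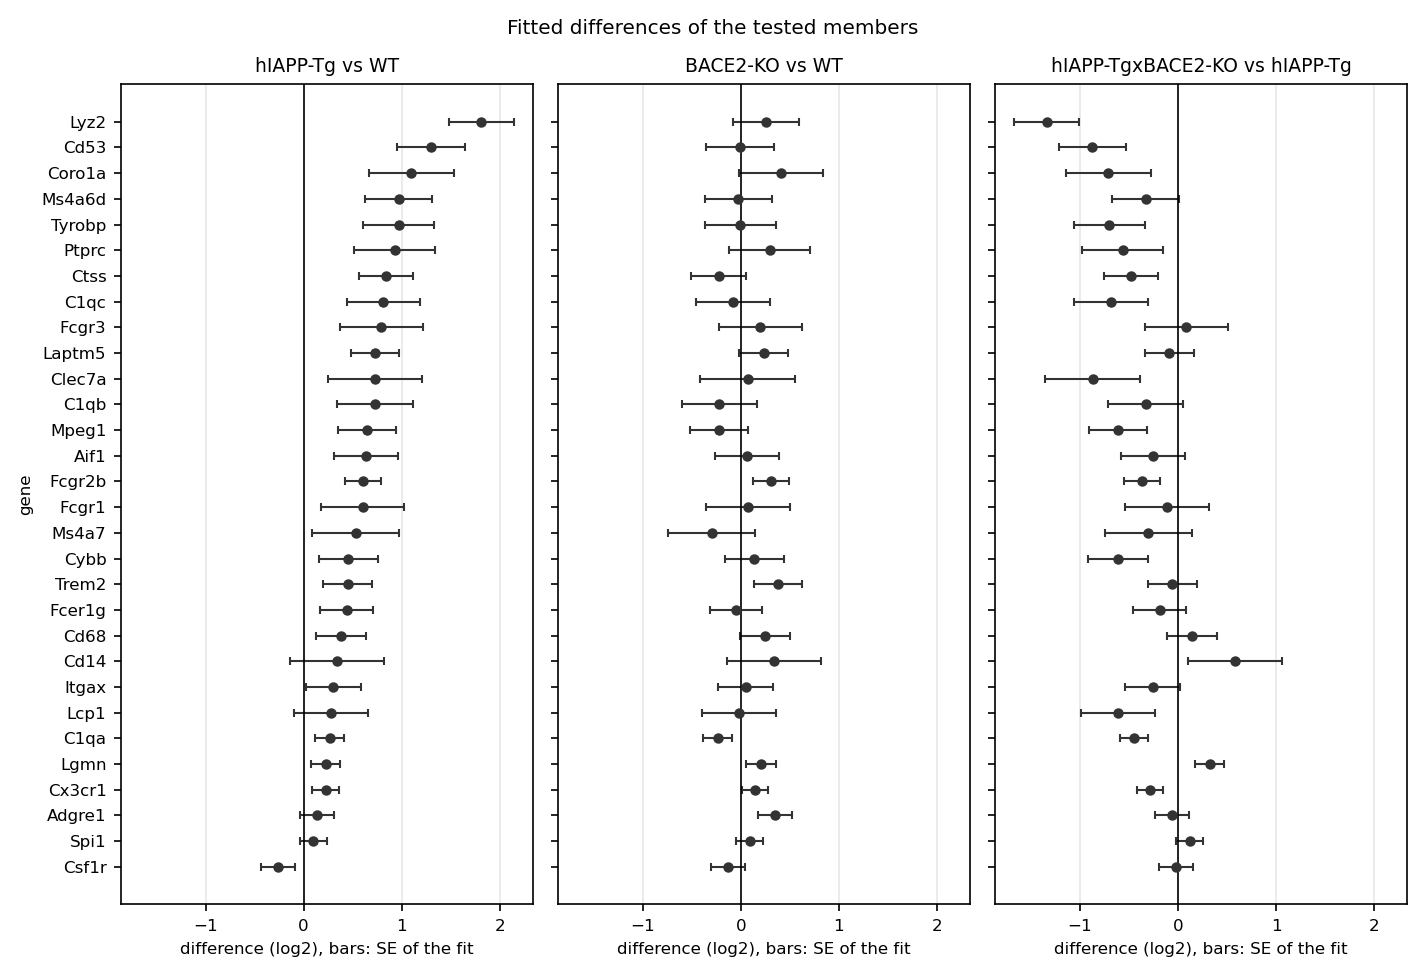
Fitted log2 differences with their standard errors for the 30 tested genes in 3 comparisons: hIAPP-Tg minus WT, BACE2-KO minus WT and hIAPP-TgxBACE2-KO minus hIAPP-Tg. Genes are ordered in all panels by their hIAPP-Tg minus WT difference. In the first panel 29 of 30 points lie above 0, in the second 18 do, and in the third 25 lie below 0.

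Loss of BACE2 without the transgene gave differences in both directions. In BACE2-KO against WT, 18 of the 30 were higher (52.5% of all genes) and 12 lower, with a median of 0.07. This split depended on single arrays: 23 were higher without array 1 of BACE2-KO (median 0.22) or without array 1 of WT (median 0.15), and 15 without array 2 of BACE2-KO (median 0.02). In limma, 0 of the 30 passed at an adjusted p under 0.05 (16 of all genes, 0.125%) and 0 at an unadjusted p under 0.05 (6.28% of all genes). The BACE2-KO arrays lay above WT for Cx3cr1, Fcgr2b, Lgmn and Laptm5 (6.59% of all genes) and below WT for none of the 30 (6.34%). Other probe sets gave differences of 0.01 for Laptm5 and of 0.45, 0.03 and -0.0033 for Fcgr2b. The other probe set of Cx3cr1, under the filter level, gave -0.08. Lyz2 differed by 0.26 (SE 0.33), C1qa by -0.24 (SE 0.15), and the largest of the 30 was Coro1a at 0.41 (SE 0.43). Each comparison with WT used the same 3 WT arrays.

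In transgenic islets that also lacked BACE2, most of the genes had lower means than in transgenic islets with BACE2, but the 3 arrays of the group differed widely. Of the 30, 25 were lower in hIAPP-TgxBACE2-KO than in hIAPP-Tg (42.4% of all genes), with a median of -0.32 against 0.03 over all genes. In limma, 0 passed at an adjusted p under 0.05 (13 of all genes, 0.101%), and Lyz2, C1qa and Cd53 were lower at an unadjusted p under 0.05 (3.34% of all genes). Lyz2 differed by -1.34 (SE 0.33, adjusted p = 0.246), C1qa by -0.45 (SE 0.15, adjusted p = 0.409) and Cd53 by -0.87 (SE 0.34, adjusted p = 0.499). All 3 arrays of hIAPP-TgxBACE2-KO lay below all hIAPP-Tg arrays for Lyz2 and C1qa (4.57% of all genes). The genes higher in hIAPP-TgxBACE2-KO were Cd14 (0.58, SE 0.48), Lgmn (0.32, SE 0.15), Cd68, Spi1 and Fcgr3, and none of these passed. Without array 1 of hIAPP-TgxBACE2-KO the median was -0.04 with 17 of 30 lower, and without array 2 it was -0.56 with 27 lower. The difference of Lyz2 ran from -1.76 to -0.87 when single arrays were left out.

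Against WT, hIAPP-TgxBACE2-KO islets had higher means for 24 of the 30 genes (49.5% of all genes) and a median of 0.32. In limma 0 passed at an adjusted p under 0.05 (17 of all genes, 0.133%). Lgmn (0.55, SE 0.15, adjusted p = 0.289) and Laptm5 (0.64, SE 0.25, adjusted p = 0.497) had an unadjusted p under 0.05, where 8.43% of all genes did. The arrays lay above WT without overlap for Spi1, Cd14, Fcgr3, Lgmn and Laptm5 (6.68% of all genes). Cd14 had 6.79, 7.59 and 6.63 in hIAPP-TgxBACE2-KO, all above the highest WT array, and Fcgr3 had 3.89, 5.64 and 4.24. Lyz2 differed from WT by 0.47 (SE 0.33), and by 0.05 without array 2 of hIAPP-TgxBACE2-KO. Without that array 14 of the 30 were higher and the median was -0.0033, and without array 1 there were 28 and the median was 0.58.

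The transgene was also compared within islets that lacked BACE2. In hIAPP-TgxBACE2-KO against BACE2-KO, 21 of the 30 were higher (45.9% of all genes) with a median of 0.24. There limma called 0 of the 30 and 0 of all genes (0%), and Lgmn alone had an unadjusted p under 0.05 (0.34, SE 0.15, adjusted p = 0.962, where 4.44% of all genes did). No gene of the 30 had all arrays above (4.09% of all genes) or below (5.59%) those of BACE2-KO. Without array 2 of hIAPP-TgxBACE2-KO the median was -0.09 with 12 higher, and without array 1 it was 0.52 with 25 higher. The test of the difference between both transgene effects, the interaction, called 0 of the 30 (1 of all genes, 0.0078%). The interaction was below 0 for 26 of the 30 (44.8% of all genes), and Lyz2 (-1.59, SE 0.47), Fcgr2b (-0.67, SE 0.26) and Cx3cr1 (-0.43, SE 0.19) had an unadjusted p under 0.05 (2.4% of all genes), each with an adjusted p of 1. The median interaction of -0.32 was -0.06 without array 1 of hIAPP-TgxBACE2-KO and -0.61 without array 2.

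Averaged over BACE2 status, the transgene comparison gave 27 of the 30 higher (42.4% of all genes) with a median of 0.46. In limma 0 passed at an adjusted p under 0.05 (1 of all genes, 0.0078%) and 9 at an unadjusted p under 0.05, where 7.59% of all genes did. Lyz2 differed by 1.01 (SE 0.24, adjusted p = 0.644), and without array 1 of hIAPP-TgxBACE2-KO it passed (1.25, adjusted p = 0.045). Ctss differed by 0.72, Cd53 by 0.87 and Ms4a6d by 0.82. Averaged over transgene status, BACE2 loss gave 22 of the 30 lower (44.2% of all genes) with a median of -0.12. Without array 1 of hIAPP-TgxBACE2-KO there were 17 lower and 13 higher with a median of -0.01, and without array 2 of that group 24 were lower with a median of -0.28. In that comparison 0 of the 30 passed (118 of all genes, 0.92%), and C1qa (-0.34, SE 0.10, adjusted p = 0.196), Lgmn (0.27, SE 0.11, adjusted p = 0.357) and Lyz2 (-0.54, SE 0.24, adjusted p = 0.406) had an unadjusted p under 0.05, where 11.4% of all genes did.

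The genes varied together from array to array, also within a genotype. The mean level of the 30 was 6.37 on array 2 of hIAPP-TgxBACE2-KO, 6.30, 6.27 and 5.85 on the hIAPP-Tg arrays, and 5.27 on array 1 of hIAPP-TgxBACE2-KO, so that the highest and the lowest array of the series belonged to the same genotype. The WT arrays had means of 5.68, 5.55 and 5.39, and the BACE2-KO arrays 5.39, 5.75 and 5.72. The highest array was array 3 of hIAPP-Tg for 11 genes, array 2 of hIAPP-TgxBACE2-KO for 10 and array 1 of hIAPP-Tg for 5. The median SD of the 30 genes over the 3 arrays of a group was 0.59 in hIAPP-TgxBACE2-KO, 0.35 in BACE2-KO, 0.34 in hIAPP-Tg and 0.25 in WT, against 0.12 to 0.17 for all genes. Over the 12 arrays, 24 of the 30 had a Pearson correlation above 0.5 with the mean of the other members, and 23 did once group means were removed. The share of all genes above 0.5 was not counted, so these counts only describe the 30. Over the 12 arrays the lowest were Spi1 (-0.06), Adgre1 (0.11) and Csf1r (0.20). With group means removed the lowest were Spi1 (-0.30), Adgre1 (0.21) and Cybb (0.29), and Csf1r had 0.79. These correlations describe points that share arrays.

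**Figure D4:**
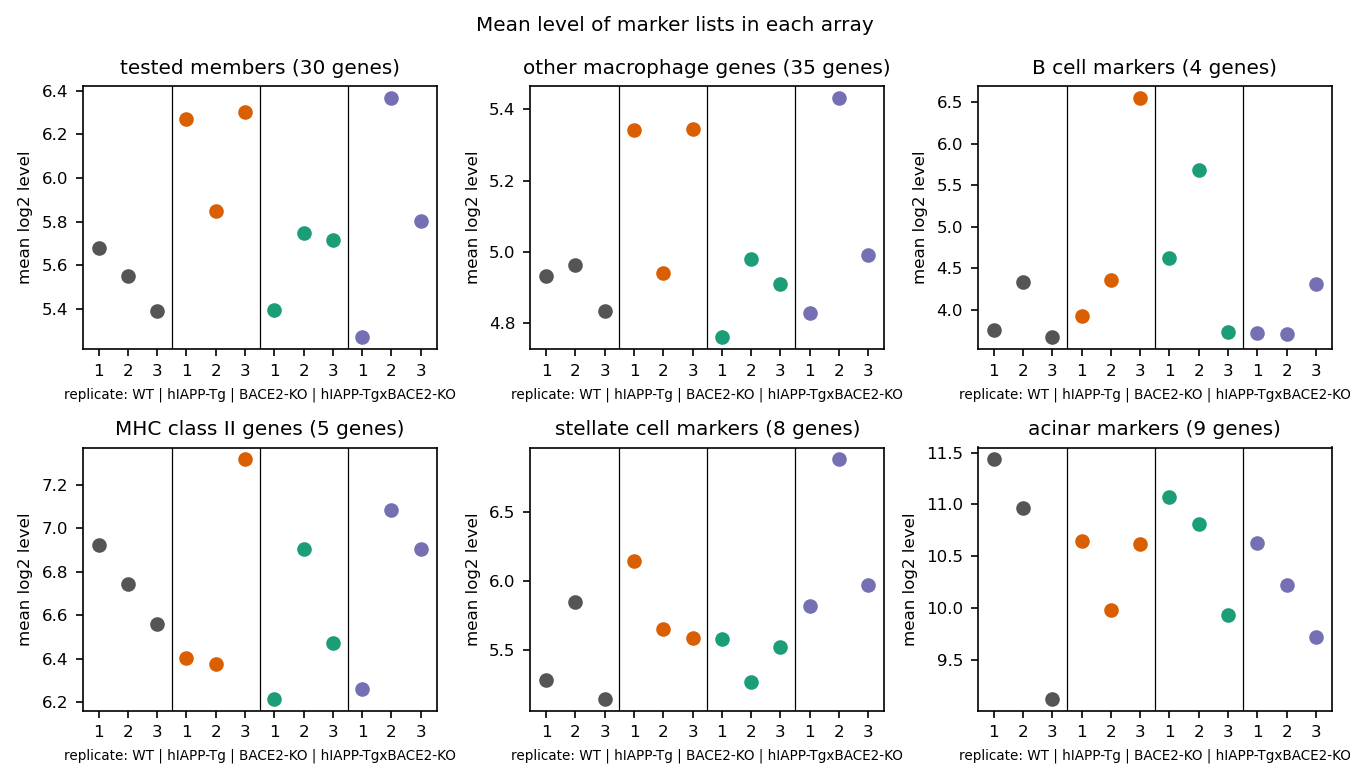
Mean log2 level on each array of 6 gene lists: the 30 macrophage and myeloid genes, other macrophage genes, B cell, MHC class II, stellate cell and acinar genes. Array 2 of hIAPP-TgxBACE2-KO is the highest for the macrophage genes (6.37) and for the stellate cell genes (6.88), and array 3 of hIAPP-Tg is the highest for the B cell genes (6.55).

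Other cell types also differed between arrays. The mean of 8 stellate cell and fibroblast genes was 6.88 on array 2 of hIAPP-TgxBACE2-KO and 5.15 to 6.14 on the others, and all 8 had higher means in hIAPP-Tg than in WT (median 0.32). All 8 were also higher in hIAPP-TgxBACE2-KO than in WT (median 0.79), in BACE2-KO (0.67) and in hIAPP-Tg (0.38), while 3 of 8 were higher in BACE2-KO than in WT (-0.07). The acinar genes ranged from 9.12 on array 3 of WT to 11.44 on array 1 of WT. The 7 beta cell genes had lower means in hIAPP-Tg than in WT (median -0.35). With the mean of the acinar genes as a covariate, the median difference of the macrophage genes between hIAPP-Tg and WT was 0.58. The part of stellate and beta cells in these differences was not tested. The MHC class II genes, which macrophages, dendritic cells and B cells express, had a median difference of -0.03 between hIAPP-Tg and WT, with 1 of 5 higher, and were highest on array 3 of hIAPP-Tg (7.32) and array 2 of hIAPP-TgxBACE2-KO (7.09).

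Further genes were read from lists of macrophage genes that are not among the 34. Which cells of these bulk samples gave their transcripts was not tested. Of 35 other macrophage genes tested, 31 were higher in hIAPP-Tg than in WT (41.6% of all genes) with a median of 0.22, and 7 had an unadjusted p under 0.05, all of them higher (1.43% of all genes). They included the C-type lectin gene Clec4n (1.03, SE 0.29), Ly86, whose product MD-1 pairs with RP105 (0.97, SE 0.30), the GPI-anchored protein gene Cd52 (1.04, SE 0.42) and the lysosomal transporter gene Slc15a3 (0.71, SE 0.30). Of the 10 lipid-associated macrophage genes 9 were higher with a median of 0.16. Among these, Apoe, which encodes apolipoprotein E, had 6.87, 6.85 and 6.73 in WT, 9.33, 8.73 and 8.53 in hIAPP-Tg, 6.29, 7.70 and 7.62 in BACE2-KO and 6.98, 8.66 and 7.72 in hIAPP-TgxBACE2-KO. The hIAPP-Tg arrays lay above WT without overlap (2.05, SE 0.41, adjusted p = 0.681), and array 2 of hIAPP-TgxBACE2-KO lay within their range, whereas for Lyz2 it lay below them. The fatty acid binding protein gene Fabp5 differed by 0.71 (SE 0.18) and Gpnmb, a glycoprotein of lipid-laden macrophages, by 0.81 (SE 0.32). None of these passed limma's test over all genes.

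The kinases and linkers that act downstream of ITAM adaptors were higher for 7 of 7 tested, with a median of 0.22, and the other oxidase subunits for 3 of 3, of which the GTPase gene Rac2 differed most (0.75, SE 0.30). Of the 12 other tissue-resident macrophage genes, 6 lay under the filter level, among them Timd4 and Vsig4, and the 6 tested had a median of 0.04. Ligands that draw or sustain macrophages were higher for 7 of 9 with a median of 0.06, and Cx3cl1, the ligand of CX3CR1, was lower (-0.56, SE 0.23). Inflammatory genes were higher for 5 of 8 (41.6% of all genes) with a median of 0.15, and 3 were lower, down to -0.19. The largest difference, 0.92, was that of Il6, with 6.92, 7.79 and 6.54 in WT and 9.74, 7.56 and 6.71 in hIAPP-Tg, which overlapped. Tnf differed by 0.34 (SE 0.12), Nlrp3 by 0.34 (SE 0.13) and Il1b by 0.27 (SE 0.28). Tnf and Nlrp3 lay close to the filter level, with means of 3.58 and 3.42 in WT. Their means were also above WT in BACE2-KO (3.81 and 3.66) and in hIAPP-TgxBACE2-KO (3.82 and 3.86). The other complement genes were higher for 5 of 7 with a median of 0.30. In these lists 0 genes passed an adjusted p under 0.05 in hIAPP-Tg against WT. Selenop, a selenoprotein gene listed with the resident macrophage genes and also made by other cells, passed in the comparison of BACE2 loss averaged over transgene status: it fell by 0.38 (limma, adjusted p = 0.0213), with 12.22, 11.98 and 11.99 in WT and 11.71, 11.65 and 11.86 in BACE2-KO.

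The genes outside the list whose profile over the 12 arrays was most like the mean of the 30 were Itgb2, the beta chain of leukocyte integrins (Pearson r = 0.947), the inhibitory receptor gene Lilrb4a (0.93), Acp5, which encodes the acid phosphatase of osteoclasts and macrophages (0.92), Ly86 (0.902), the lysosomal protease gene Ctsc (0.887), Slc11a1 (0.883), Apoe (0.883), Blnk (0.878), Ms4a6c (0.878) and Ms4a6b (0.876). Itgb2 had 5.06, 4.88 and 4.37 in WT, 5.48, 5.51 and 5.81 in hIAPP-Tg, 4.57, 5.11 and 4.88 in BACE2-KO and 4.09, 5.91 and 5.04 in hIAPP-TgxBACE2-KO. All hIAPP-Tg arrays lay above WT, and both the lowest and the highest array were of hIAPP-TgxBACE2-KO. After group means were removed, Slc11a1 (0.948), Lilrb4a (0.927), Itgb2 (0.925), Blnk (0.919), Ms4a6b (0.916) and Ms4a6c (0.915) were again among the 10 nearest, and the others were Pfn4 (0.949), Pde6d (0.944), Lpcat2 (0.933) and Gpr183 (0.93).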

How the data were processed

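The deposited log2 expression values, 1 per probe set and array, were made by the authors with RMA in affy, per the submitters' processing notes; the sources used here give no versions. Probe sets were named from the platform annotation: of 45141, 28898 had 1 symbol, 551 several and 15692 none listed. The probe set with the highest mean represented a gene, and genes below the 25th percentile of mean level were not tested. Group means were estimated from all 12 arrays in limma 3.58.1 (R 4.3.3; lmFit and eBayes, trend on). Tests were two-sided, and a gene was called at a Benjamini-Hochberg adjusted p under 0.05 over 12825 genes. The steps were tested on simulated data. Differences are in log2 units with the SE of the fit, and levels are mean ± SD.

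The members and the other lists were chosen with earlier results of these data known. Every member could be named, with values by array for up to 4 per role by smallest unadjusted p among WT, hIAPP-Tg and hIAPP-TgxBACE2-KO and for members near the filter level, up to 4 genes of each other list, and the 10 non-members most like the members' mean; S100a8, Mpo, S100a9, Timd4, Vsig4, Il1b, Selenop and the B cell genes were named after their values were seen. Nothing says that arrays came from separate animals, so the p-values reflect only how these arrays vary, and their number limits the precision. At most 2.22% of values were equal between any pair of arrays, so none was a copy. Array medians ran from 4.22 to 4.35. Alternatives covered the filter, probe set, normalization, centring, variance model, threshold, array weights, an acinar covariate, a replicate block, a fit limited to the arrays compared, and each array left out. Chosen after seeing the data were a B cell covariate, a fit without both arrays high in B cell genes, and the fit of 6 arrays without each in turn. matplotlib 3.10.9 drew the plots.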

Additional observations from a re-analysis of the deposited data

How the results depend on the processing

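For 65 member differences there were 1836 pairs of a difference and an alternative setting. Of these, 1819 kept their direction and their side of the threshold, 7 reversed and 10 passed it. Many pairs could not move: a change of variance model, or an array left out of a group not compared, keeps a difference as it was. The count therefore does not measure steadiness, and 18 of the 30 differences in hIAPP-Tg against WT moved by over 1.5 times. In hIAPP-Tg against WT, Lyz2 was the 1 member called when only the groups compared were fitted. With single arrays left out, 0 to 1 members were called. The adjusted p of Lyz2 in the fit of 6 arrays was 0.00195 to 0.0409 without any one array, and that fit holds no array of hIAPP-TgxBACE2-KO, the group in which the members varied most. Left-out arrays gave 0 to 1 members called for the transgene averaged over BACE2 status, and a median in hIAPP-TgxBACE2-KO against BACE2-KO of -0.0908 to 0.52. The reversals were Adgre1 (-0.0033 to 0.27) and Cd14 (-0.12 to 0.59, with -0.04 without array 3 of WT) in hIAPP-Tg against WT, and Lyz2 in hIAPP-TgxBACE2-KO against BACE2-KO (-0.21 to 0.68). The fit of 6 arrays gave the same reversals of Adgre1 and Cd14 when the same arrays were left out.

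Counts of all genes called ranged more: 1 to 5 in hIAPP-Tg against WT (2 as reported), 5 to 36 in BACE2-KO against WT (16), 0 to 34 in hIAPP-TgxBACE2-KO against WT (17), 3 to 29 in hIAPP-TgxBACE2-KO against hIAPP-Tg (13), 0 to 2 in the interaction (1) and in the averaged transgene comparison (1), and 31 to 205 for averaged BACE2 loss (118). The labels do not say what the replicate numbers share, so the numbers were not taken to pair the arrays. Of 18 correlations between the deviations of same-numbered arrays, 10 were over 0.1 (range -0.129 to 0.372). Among the 3 numbers, 8 of 12 arrays were most like their own number. No chance level was worked out for this count, and whether the numbers mark something shared was not tested. With the replicate block, 0 members were called in each comparison, and all genes called were 27, 29 and 205 in the last-named comparisons with 17, 13 and 118. Probe sets under the filter level lie near the background of the array, so Itgam, Mrc1 and Cd163 were weakly measured, and Spi1 lies just above that level.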
